A study of Mus musculus with 8 samples.

Results

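To describe N6-methyladenosine (m6A, a methyl mark on adenosines of RNA) on the transcripts of platelet-derived growth factor (PDGF) signaling, the summits of 4 m6A peak lists were placed on the genes of the PDGF ligands and receptors. The members were 6 genes, the receptors Pdgfra and Pdgfrb and the ligands Pdgfa, Pdgfb, Pdgfc and Pdgfd, of 55450 annotated genes, and every summit in an annotated exon of 1 of them was taken, whatever its value. This gave 42 summits of 42744 in all lists. The cells were primary mouse vascular smooth muscle cells (VSMCs), which by the methods came from the descending aorta of adult C57BL/6J mice and grew out after the adventitia was digested off and the endothelium scraped away. How many animals or cultures each sample held is not given in the sources used here. The cells carried lentivirus with either a control short hairpin RNA (shCTR), which the methods describe as nontargeting and directed at a plant microRNA, or a short hairpin RNA against Mettl14 (shMettl14), a subunit of the complex that writes m6A. Both groups were therefore transduced, and no untransduced cells were compared. Each group had 2 replicates, A and B, and each replicate had RNA from an anti-m6A pulldown and the input RNA, so that the 8 samples gave 4 peak lists of pulldown over its own input. Values of a group are given for replicate A and then for replicate B.

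PDGF ligands are dimers made of products of these 4 genes, and they bring receptor chains together so that the kinases phosphorylate each other. The beta receptor binds PDGF-BB, the dimer of the Pdgfb product and a classical mitogen of smooth muscle, whereas the alpha receptor binds A, B and C chains. In the vessel wall, endothelial cells are a known source of Pdgfb, Pdgfrb marks smooth muscle cells and pericytes, and Pdgfra marks fibroblasts.

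The lists held 11158 and 8655 summits in shCTR and 13675 and 9256 in shMettl14, and the median summit had 13 to 16 pulldown fragments. The methods name a read depth per sample, but a list gives no read total, so the depth behind each list is seen only through these pileups. No list had a summit in an exon of Mettl14, and a peak list does not measure the level of a transcript, so the knockdown could not be checked here. Of the cell type markers, 0 of 6 smooth muscle genes had summits in all 4 lists, and Myh11, a smooth muscle myosin, had them in 3. The endothelial genes Pecam1 and Cdh5 (2 of 5) and the fibroblast genes Pdgfra and Col1a1 (2 of 5) had summits in all 4 lists, and 0 of 5 macrophage genes did. A marker without a peak may be an abundant transcript without m6A, so these counts do not give the makeup of the cultures.

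PDGF transcripts carried all of their 42 summits in the 3′ untranslated region (3′ UTR), and all 42 lay in the last exon. Over all 34532 summits placed on coding transcripts, 31.5% lay in a 3′ UTR and 64.2% in a last exon. Among the 3251 coding genes with placed summits in all 4 lists, 711 (21.9%) had every summit in the 3′ UTR, so this placement was shared by many other genes. The summits of the PDGF genes kept some distance from the stop codon. Only 4 of 42 (9.52%) lay within 200 nt of its first base, against 26.4% of all placed summits, and 24 of 42 (57.1%) lay within 400 nt, against 41.1%. Summits of 1 transcript in 4 lists are repeated views of the same site, so the 42 summits stand for 14 sites.

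m6A is written mostly on the A of the 5-letter motif DRACH, where the letter D stands for any base but C, R for a purine and H for any base but G, and GGACT is a form of it that is often methylated. The motif was searched on the transcript strand. The windows shown here carry the motif nearest to the median summit of a site, with 10 bases on each side, for 7 of the 14 sites, because these are the adenosines closest to the signal. They are printed 5′ to 3′ from GENCODE M21 transcripts of GRCm38, with the motif in capitals, and the line for Pdgfb GGACT shows the nearest GGACT of that gene's main site. No window is shown for the 6 Pdgfrb sites or for the weak Pdgfb site of shMettl14 A.
Pdgfra: tacttggattGAACTttatccgtgt
Pdgfa first site: agcgaaaacaAAACCacaaaaaaga
Pdgfa site found in shMettl14: agctccgtggGAACTgaacaggtgg
Pdgfb: cctggttcctGGACCactggccagc
Pdgfb GGACT: cgtggactgtGGACTggccccagag
Pdgfc upstream site: ctgaccacagAAACAaatgaaatga
Pdgfc downstream site: tgttttctacAAACTcaaagctttt
Pdgfd: taggttacaaAAACCctaagaagct

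The Pdgfra window (chr5:75195262-75195286, plus strand) had its A 34 nt upstream of the median summit. The Pdgfa windows (chr5:138976969-138976993 and chr5:138976698-138976722, minus strand) lay 4 nt upstream of the median summit of the first site and 42 nt downstream of that of the other. In Pdgfb, a GGACC (chr15:79996915-79996939, minus strand) lay 3 nt from the median summit and the GGACT (chr15:79996975-79996999) 57 nt upstream of it. The Pdgfc windows (chr3:81212845-81212869 and chr3:81213058-81213082, plus strand) lay 4 nt downstream and 24 nt upstream of their summits, and the Pdgfd window (chr9:6377061-6377085, plus strand) lay 5 nt upstream. All of these windows are in the 3′ UTR.

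A DRACH lay within 50 nt of 38 of the 42 PDGF summits (90.5%), against 95.2% of all placed summits and 96.1% of those in a 3′ UTR. GGACT lay within 50 nt of 7 (16.7%), a lower share than the 7250 of 34532 placed summits and the 2612 of 10880 in a 3′ UTR. Within 100 nt the order was the other way, with 17 PDGF summits (40.5%) against 12110 (35.1%) and 4259 (39.1%). The 7 were 5 summits of Pdgfrb and 2 of Pdgfb, and the windows of 50 nt round the summits of Pdgfra, Pdgfa, Pdgfc and Pdgfd held no GGACT. All 4 lists had 2 GGACT within 25 nt of the Pdgfrb summit nearest the stop codon. The 3′ UTR of Pdgfa held 34.5 DRACH per kb, above 97.2% of the 19069 genes with a 3′ UTR of at least 100 nt (median 20.1 per kb), while that of Pdgfb held 16.3 per kb. GGACT was denser than in the median 3′ UTR (0.573 per kb) in 5 of the 6 genes, from 0.684 per kb in Pdgfc to 2.39 per kb in Pdgfrb, and that of Pdgfd held none. The 3′ UTR of Pdgfra, with 3101 nt the longest of the 6, held 79 DRACH, of which 4 lay within 50 nt of a summit, and it held 3 GGACT, of which 0 did. A motif match is a description of the sequence and no measured site of methylation.

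**Figure D1:**
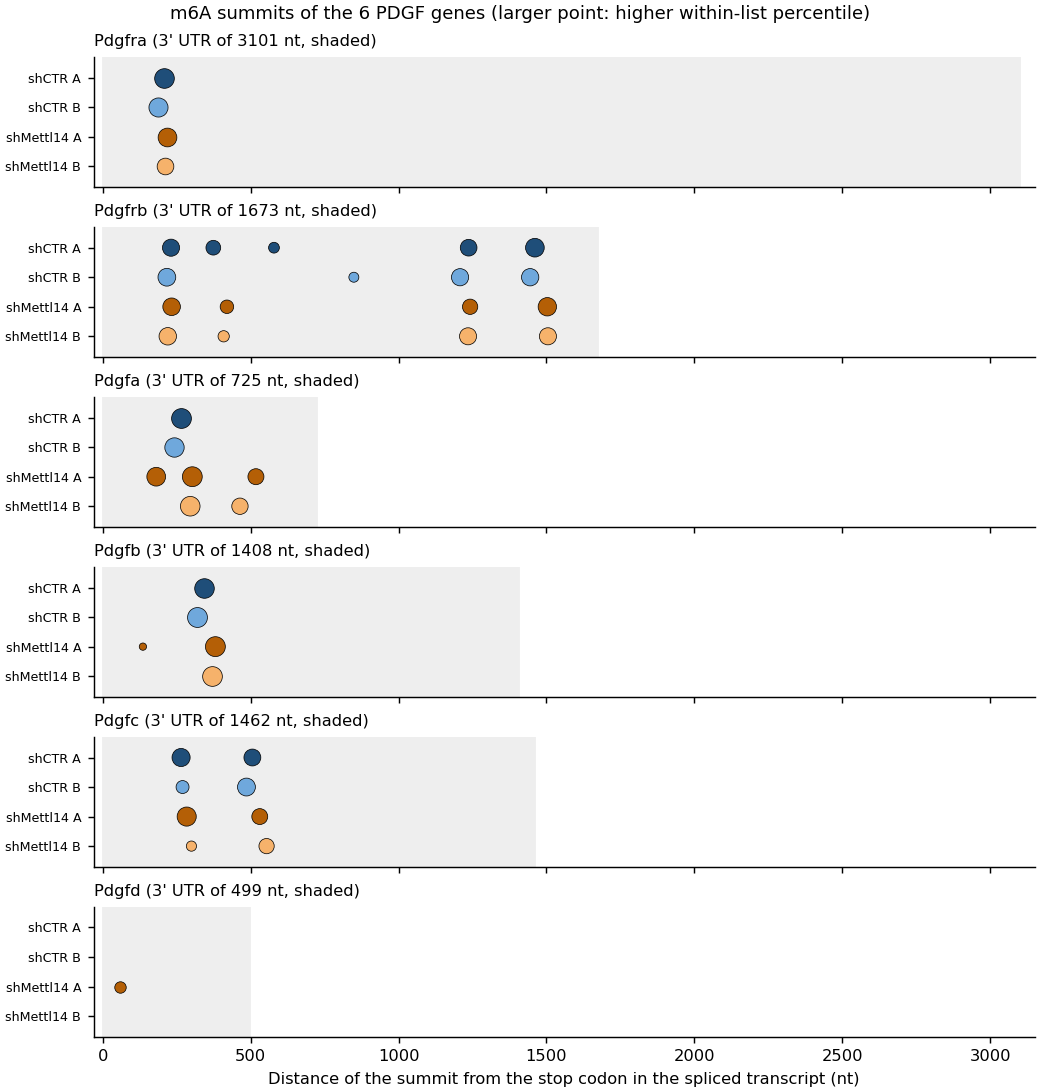
Position of every m6A summit of the 6 PDGF genes, as the distance in nt from the first base of the stop codon in the spliced transcript, with 1 row per peak list and the 3′ UTR shaded. Pdgfra had a single summit 186 to 216 nt past the stop codon in each list, Pdgfrb had 4 or 5 summits spread up to 1505 nt, and Pdgfd had 1 summit in shMettl14 A.

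The PDGF genes had 10 of 11158 and 9 of 8655 summits in shCTR, and 13 of 13675 and 10 of 9256 in shMettl14. The groups overlapped, with 9.5 ± 0.707 summits in shCTR and 11.5 ± 2.12 in shMettl14 (SD, n = 2 each; exact permutation test, two-sided, p = 0.667). With 2 lists against 2 the smallest p this test can give is 0.333. Nothing in the labels says that A and B were separate cultures, so tests here measure the spread between these samples only. Of the 6 genes, 5 had a summit in all 4 lists, and Pdgfd did not, whereas 16.2% of the 21473 coding genes had exonic summits in all 4. Merging intervals that shared a base gave 7 PDGF regions, of which 0 were found by both replicates of 1 shRNA and by no replicate of the other. Over all 11361 regions, 1.71% were in both shCTR lists only and 1.79% in both shMettl14 lists only.

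Enrichment was compared by the within-list percentile, the share of a list's summits with a fold enrichment at or below that of the summit. Fold enrichment is the pulldown pileup over the local background, each plus 1, and its scale differs between lists. By the mean percentile of the strongest summit over 4 lists, the order was Pdgfb (97.9), Pdgfa (96.7), Pdgfra (85.3), Pdgfrb (80.1) and Pdgfc (75.9). Among the 3251 coding genes with placed summits in all lists, these means ranked 94, 170, 940, 1236 and 1484. Taken over all lists, the values of neighbours in this order overlapped for each of the 4 neighbouring pairs. Compared within a list, Pdgfa lay above Pdgfra in all 4 lists, whereas the order of each other pair was not the same in every list.

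**Figure D2:**
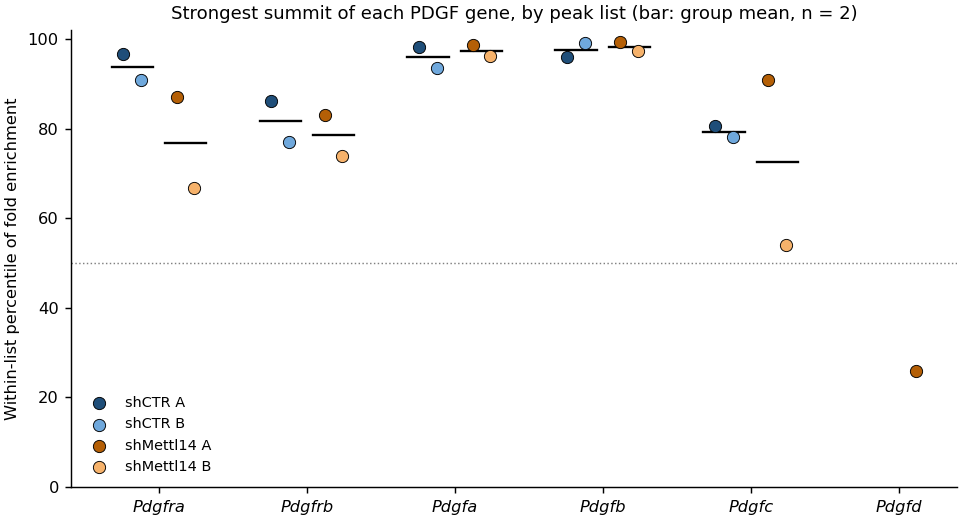
Within-list percentile of fold enrichment (y axis, percent) of the strongest summit of each PDGF gene in each of the 4 peak lists, with a bar for the mean of each group of 2. Pdgfb and Pdgfa lay above 93 in every list, both shMettl14 values of Pdgfra (87.0 and 66.7) lay below both shCTR values (96.8 and 90.9), and Pdgfd had 1 value.

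Among the receptors, Pdgfra (ENSMUSG00000029231.15, GRCm38 chromosome 5, 75152292 to 75198215, plus strand), the alpha receptor that binds most PDGF dimers, had 1 site. Its fold enrichment was 19.5 and 16.0 in shCTR and 12.5 and 9.92 in shMettl14. Both shMettl14 lists lay below both shCTR lists. In percentiles the values were 96.8, 90.9, 87.0 and 66.7, a mean of 93.8 ± 4.14 in shCTR and 76.8 ± 14.4 in shMettl14 (SD, n = 2), and the difference of -17.0 points was larger than the SD of either group (exact permutation test, two-sided, p = 0.333, the smallest possible). It was -6.84 points without shMettl14 B and -27.2 points without shMettl14 A. In the rank test, which turns ranks over the 4929 regions found in all lists into normal scores, the Pdgfra region (75195051 to 75195569) had a difference in score (shMettl14 minus shCTR) of -0.96 ± 0.50 (SE; limma adjusted p = 0.993). This difference did not pass the threshold of 0.05. The test called 0 of 4929 regions (0%) at an adjusted p under 0.05 and 4.93% at an unadjusted p under 0.05.

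The terms behind the Pdgfra ratio were recovered from the fold enrichment and its p-value. The pulldown pileup at the summit was 28 and 18 fragments in shCTR and 19 and 12 in shMettl14, and these groups overlapped. The local background was 0.485, 0.187, 0.601 and 0.310 fragments on the scale of each pulldown. Relative to the median region of each list, the log2 pileup differed by -0.31 ± 0.27 (SE; limma adjusted p = 0.985) and the log2 background by 1.05 ± 0.50 (SE; limma adjusted p = 0.890), and neither passed the threshold. On this relative scale both shMettl14 backgrounds lay above both shCTR backgrounds, as was the case for 20.1% of all regions, while 5.62% of regions had an unadjusted p under 0.05 for background. Within a list, 52.2% to 59.8% of the backgrounds under 1.5 fragments were whole multiples of 1 step (within 0.03 steps), as whole input fragments give, and the Pdgfra values were 3 and 2 steps in shCTR and 4 and 3 in shMettl14. The exact 95% Poisson intervals were 0.619 to 8.77 for a count of 3, 0.242 to 7.22 for 2 and 1.09 to 10.2 for 4, and cover counting error only. The background values behind the Pdgfra ratio thus rest on few fragments, and their part in the lower ratio was not tested. Of the other fibroblast markers Col1a1 had summits in all 4 lists, and Dcn, Lum and Thy1 had none in any.

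**Figure D3:**
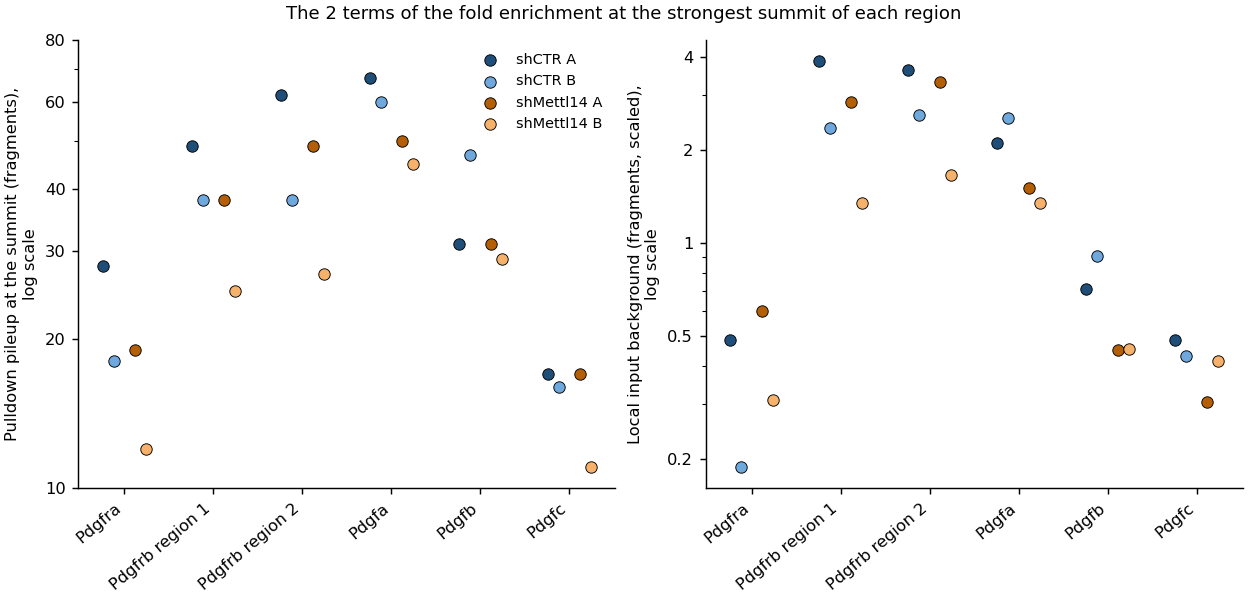
Recovered pulldown pileup (left, fragments, log axis) and local input background (right, fragments on the scale of the pulldown, log axis) at the strongest summit of the 6 PDGF regions found in all 4 lists, with 1 point per list. Pdgfrb and Pdgfa had backgrounds above 1 fragment in every list, whereas the backgrounds of Pdgfra, Pdgfb and Pdgfc all lay below 1.

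Pdgfrb (ENSMUSG00000024620.11, chromosome 18, 61045150 to 61085061, plus strand), the receptor through which PDGF-BB mainly acts, carried 17 of the 42 summits at 6 sites. Sites at 217 to 233, 1208 to 1242 and 1445 to 1505 nt past the stop codon were in all 4 lists, 1 at 374 to 420 nt was in 3 lists, and the summits at 579 and 849 nt were in shCTR A and shCTR B, respectively. No Pdgfrb site was found by both replicates of 1 shRNA and missed by both of the other. The highest pileups of any PDGF gene lay at 1208 to 1242 nt, with 95 and 78 fragments in shCTR and 57 and 54 in shMettl14. The background there was also the highest, at 8.90, 6.37, 6.46 and 4.24 fragments, so that this site had a percentile of 66.7, 71.5, 54.3 and 70.1 by fold enrichment against 99.5, 98.5, 98.4 and 98.0 by pileup. The most enriched Pdgfrb summit of shCTR A and shMettl14 A lay at the site farthest from the stop codon, with a percentile of 86.2 and 83.2, and that of shCTR B and shMettl14 B at the site nearest to it, with 77.1 and 74.0. Replicate A and replicate B thus differed in which site came out strongest, and the groups overlapped (exact permutation test, two-sided, p = 0.667).

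The 2 Pdgfrb regions (61083338 to 61084025 and 61084141 to 61084964) differed by -0.01 ± 0.50 and -0.16 ± 0.50 in the rank test (SE; limma adjusted p = 0.999 for both). Their 95% intervals, -1.04 to 1.01 and -1.18 to 0.87, include a difference of the size seen at Pdgfra. The mean percentile over the summits of Pdgfrb was 59.0 and 59.5 in shCTR and 63.1 and 59.8 in shMettl14. These groups did not overlap, but their difference of 2.18 points was smaller than the SD of 2.35 in shMettl14. The difference turned to -3.06 points for the strongest summit, -0.33 by −log10 p and -0.54 by pileup.

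Among the ligands, Pdgfa (ENSMUSG00000025856.15, chromosome 5, 138976014 to 138997370, minus strand), which encodes the A chain, was among the most enriched genes in each list. Its strongest summit had a fold enrichment of 21.9 and 17.3 in shCTR and 20.4 and 19.6 in shMettl14, and its percentiles were 98.3, 93.5, 98.7 and 96.2. The groups overlapped, and the region (138976655 to 138977254) differed by 0.16 ± 0.50 in the rank test (SE; limma adjusted p = 0.999). The pileup was 67 and 60 fragments in shCTR and 50 and 45 in shMettl14. Relative to the median region of each list, both shMettl14 pileups lay below both shCTR pileups, with a log2 difference of -0.16 ± 0.23 (SE; limma adjusted p = 0.985). Pileups were read at the summit of each region with the highest fold enrichment. Read there, Pdgfa was the only 1 of the 6 PDGF regions with this order, against 16.2% of all regions. The Pdgfrb site at 1208 to 1242 nt, with the highest pileups, was not read there. Its percentiles by pileup were also lower in both shMettl14 lists (98.4 and 98.0) than in both shCTR lists (99.5 and 98.5).

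The number of Pdgfa summits differed between the groups, with 1 and 1 in shCTR and 3 and 2 in shMettl14. A site 464 to 518 nt past the stop codon had a summit in both shMettl14 lists and in neither shCTR list. It was 1 of 14 PDGF sites of this kind, and 3.7% of all 16938 sites were of this kind. Its fold enrichment was 8.35 in shMettl14 A and 9.58 in shMettl14 B, with 16 and 18 fragments and percentiles of 60.5 and 63.7. The shCTR intervals also covered these positions, without a separate summit there, so the site was not shown to lack signal in shCTR. In shMettl14 A a further summit lay 181 nt past the stop codon, with a percentile of 86.9. These weaker summits pulled the mean percentile of Pdgfa down from 95.9 ± 3.37 in shCTR to 81.0 ± 1.47 in shMettl14 (SD, n = 2), while its strongest summit differed by 1.55 points in the other direction.

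Pdgfb (ENSMUSG00000000489.7, chromosome 15, 79995874 to 80014977, minus strand), which encodes the B chain of PDGF-BB, had the highest mean percentile of the strongest summit among the PDGF genes. In shCTR A it lay below Pdgfa (98.3) and Pdgfra (96.8). By pileup, the strongest summit of Pdgfa had the higher percentile in every list. The main site of Pdgfb, 319 to 381 nt past the stop codon, had a fold enrichment of 18.7 and 25.2 in shCTR and 22.1 and 20.7 in shMettl14, with 31, 47, 31 and 29 fragments. The percentiles were 95.9, 99.2, 99.3 and 97.3, so the groups overlapped, and the region (79996715 to 79997181) differed by 0.09 ± 0.51 (SE; limma adjusted p = 0.999). A further summit in shMettl14 A, 136 nt past the stop codon, had 5 fragments and a −log10 q of 2.01, near the lowest value the list holds, and it alone took the mean percentile of Pdgfb in shMettl14 A to 51.6. The endothelial markers Pecam1 and Cdh5 had m6A summits in the same lists, although the endothelium was scraped off before culture, and their part in the Pdgfb signal was not tested. In bulk RNA, fewer cells of a type and less RNA per cell cannot be told apart.

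Pdgfc and Pdgfd encode the ligands that are cut by a protease before they bind. Pdgfc (ENSMUSG00000028019.9, chromosome 3, 81036416 to 81214040, plus strand) had sites at 265 to 300 and 486 to 554 nt past the stop codon in all 4 lists. At the upstream site the fold enrichment was 12.1 and 6.86 in shCTR and 13.8 and 5.66 in shMettl14. At the downstream site it was 9.95 and 11.9 in shCTR and 8.27 and 8.49 in shMettl14, so both shMettl14 values lay below both shCTR values there. The upstream site was thus the stronger of the pair in both A lists and the weaker in both B lists, whatever the group. Summits of Pdgfc had 7 to 17 fragments, and its strongest summit ranged from 54.1 to 90.9 in percentile, with both extremes in shMettl14. The region (81212691 to 81213187) differed by -0.13 ± 0.52 (SE; limma adjusted p = 0.999). This difference takes the upstream site in the A lists and the downstream site in the B lists, so it compares no single site. With summits chained by site it was -0.54 ± 0.52 (SE; limma adjusted p = 0.992).

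Pdgfd (ENSMUSG00000032006.15, chromosome 9, 6168584 to 6378850, plus strand) had 1 exonic summit, in shMettl14 A, 60 nt past the stop codon. It had 10 fragments, a fold enrichment of 5.78 and a percentile of 25.8. shMettl14 A was also the list with the most summits, and no list of the other 3 had a Pdgfd summit in an exon, which says only that none passed the caller's threshold there.

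**Figure D4:**
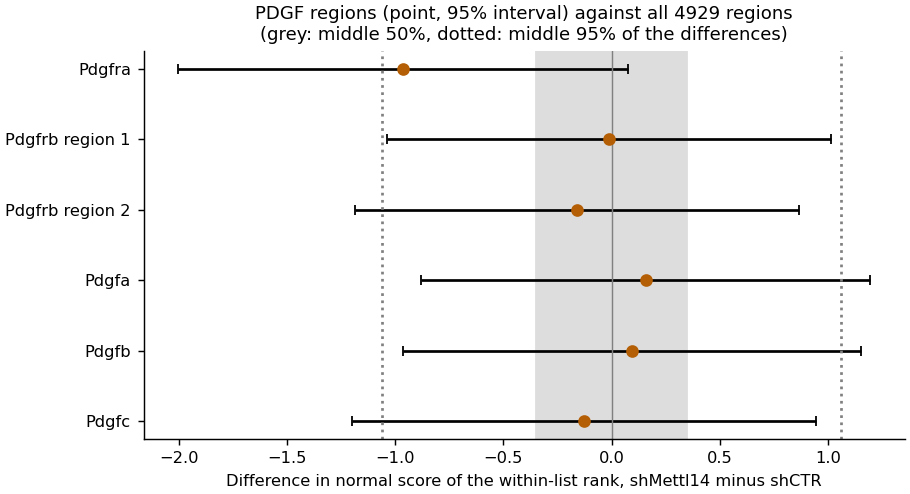
Difference in the normal score of the within-list rank, shMettl14 minus shCTR (x axis), for the 6 PDGF regions found in all 4 lists, with the estimate as a point and its 95% interval as a bar. Shading and dotted lines hold the middle 50% and 95% of the differences of all 4929 regions, and the Pdgfra estimate of -0.96 lies inside the dotted lines at -1.06 and 1.06.

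By the highest summit of each list, 1 of the 6 PDGF regions (Pdgfra) had both shMettl14 ranks below both shCTR ranks, against 15.8% of all regions, and 0 had both above, against 17%. None of these regions had an adjusted p under 0.05. The downstream Pdgfc site, not the highest of its region in the A lists, also had lower percentiles in shMettl14 (59.6 and 54.1) than in shCTR (68.4 and 78.1). The share of all single sites with this order was not counted. The regions whose 4 percentiles were nearest to those of Pdgfra were in Pomgnt2, a glycosyltransferase gene (root mean square distance 1.03 points over the 4 lists), Invs (3.27) and Eif2ak3, a kinase of the unfolded protein response (3.43). For the Pdgfrb region farther from the stop codon they were in Col6a3 (1.18), Trim25 (2.03) and Atf1 (2.15), for Pdgfa in Sema3a (0.934), Eif2ak2 (0.937) and Kbtbd2 (1.01), for Pdgfb in Son (0.492), Ccdc71 (0.504) and Atxn1 (0.520), and for Pdgfc in Cdc42ep4 (1.99), Jrkl (2.65) and Kif13b (3.07).

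The position of a summit differed between the lists in the same direction at most sites. At the Pdgfb site the summit lay 341 and 319 nt past the stop codon in shCTR and 381 and 368 nt in shMettl14. At the last Pdgfrb site it lay at 1461, 1445, 1503 and 1505 nt, and at the downstream Pdgfc site at 506, 486, 531 and 554 nt. Both shMettl14 summits were downstream of both shCTR summits in each of these, and in all at 5 of the 7 PDGF sites with 1 summit in every list. The same held for 64.2% of all 3922 such sites, so the PDGF sites did not stand apart from the others in this. Over all sites, the median offset from the mean of the 4 lists was -5 and -18.75 nt in shCTR and 15.75 and 8.25 nt in shMettl14, and it had the same sign for genes on either strand. The shortest interval of a list moved with it in the opposite order, at 141, 170, 97 and 112 bp. The part of the caller's fragment length in these offsets was not tested, and differences of this size in summit position were not read as a change of the methylated adenosine.

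**Figure D5:**
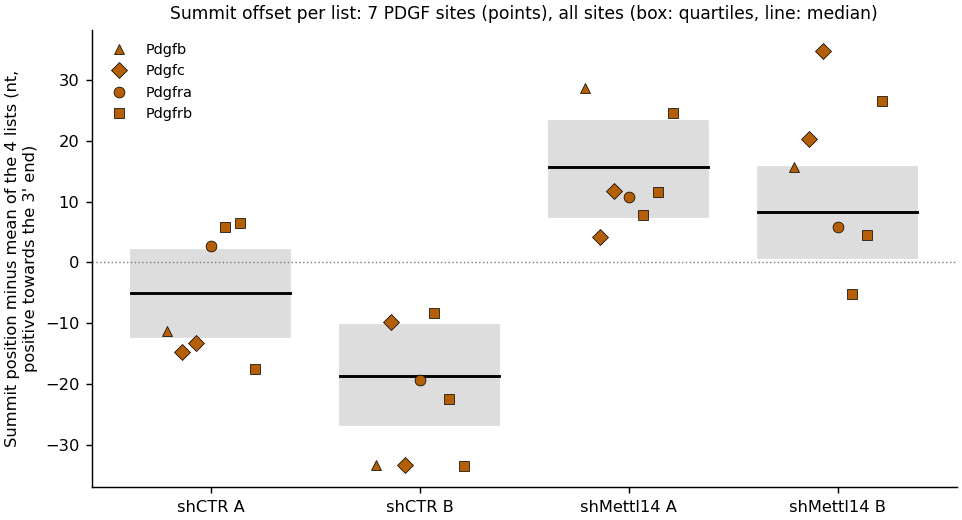
Summit position minus the mean over the 4 lists (y axis, nt, positive towards the 3′ end) for the 7 PDGF sites with 1 summit in every list (points), with the median (line) and quartiles (box) of all 3922 sites. The medians were -5 and -18.75 nt in shCTR A and B and 15.75 and 8.25 nt in shMettl14 A and B, and the PDGF sites spread round these medians.

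Of 67 further genes of the pathway, from ligand activation to early target genes, 39 had an exonic summit in any list and 28 in all 4. The rank test covered the strongest region of 27, and 0 had an unadjusted p under 0.05 in either direction. Both shMettl14 ranks lay below both shCTR ranks in 4 and above them in 8, against 15.8% and 17% of all regions. The median difference in score was 0.13, against 0.00 over all regions. Percentiles of genes in this list are those of the gene's strongest region. Of the proteins that dock on the activated receptors, 20 of 26 had a summit in any list and 14 in all. Both shMettl14 ranks lay below both shCTR ranks in 3 of these 14 and above them in 0, against 15.8% and 17% of all regions. Pik3ca, a catalytic subunit of phosphoinositide 3-kinase, had a mean percentile of 98.4 over the 4 lists, and Src, a tyrosine kinase, of 93.8. Of the 14 genes of the Ras-ERK and Akt cascade, which carries the signal onward, Hras, a Ras GTPase, had summits in all lists with a mean percentile of 73.2, and its score differed by 0.94 ± 0.50 (SE).

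Early target genes of growth factor signaling had summits in all 4 lists in 7 of 10 cases, and 5 of these 7 had both shMettl14 ranks above both shCTR ranks, against 17% of all regions, while 1 had both below. Jun, a subunit of the AP-1 transcription factor, had percentiles of 97.2 and 96.9 in shCTR and 98.5 and 99.5 in shMettl14. Egr1, a zinc finger transcription factor, had 87.0 and 92.9 in shCTR and 97.6 and 98.4 in shMettl14, with a score difference of 0.82 ± 0.50 (SE; limma adjusted p = 0.993), which did not pass the threshold. Furin, a protease that processes PDGF chains, had a mean percentile of 83.8 and was the 1 of 4 ligand-activating genes in all lists, and Nrp1, a co-receptor, had 90.4. Of 8 genes that attenuate the receptors, the phosphatase genes Ptprj (mean percentile 64.7) and Ptpn1 (36.4) had summits in all lists.

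The VEGF family and the other class III receptors with their ligands, the closest kin of the PDGF genes, had exonic summits in any list in 10 of 15 cases and in all lists in 4. The highest were Vegfa, the endothelial growth factor (mean percentile 93.6), and Kitl, the ligand of the Kit receptor (93.4), and their scores differed by 0.01 ± 0.50 and -0.29 ± 0.50 (SE). Of the 4, 1 had both shMettl14 ranks below both shCTR ranks and 0 had both above, against 15.8% and 17% of all regions, so a count of this size is no result about the kin. The 1 was Flt1, a VEGF receptor, named here after its values were seen, with percentiles of 95.2 and 97.8 in shCTR and 86.6 and 90.0 in shMettl14 and a score difference of -0.78 ± 0.50 (SE; limma adjusted p = 0.993). PDGF ligands and receptors thus had 5 of 6 genes, and their kin 4 of 15, in all 4 lists, a difference that was not tested and that also depends on which of the genes VSMCs transcribe.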

How the data were processed

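m6A-RIP-seq (sequencing of RNA fragments pulled down with an antibody against m6A) had been performed on RNA of shCTR- and shMettl14-transduced VSMCs. The authors aligned reads to mm10 (the submitters' notes name STAR, SAMtools and MACS2), kept unique alignments, and called each pulldown against its input. Versions and caller options are not given in the sources used here. The deposited lists give the fold enrichment (a ratio) and −log10 p- and q-values for each summit, and 2 deposited overlap files give intervals only. No read counts were analysed here.

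Pileups and backgrounds were solved from the ratio and −log10 p, with an error of at most 0.000151. Summits were placed with GENCODE M21 (21495 coding transcripts, the longest coding sequence of each gene). Intervals sharing a base were merged, and sites were summits chained within 100 bp. Normal scores of within-list ranks were compared with limma 3.58.1 (R 4.3.3) and Benjamini-Hochberg adjustment over all regions, and scripts were tested on simulated data. Ranks cannot show a uniform loss of m6A. Alternatives changed the ranked value, threshold, region, overlap, list, window and test. Tests of background, pileup and summit offset were added after the data were seen. Members, gene lists and marker lists were chosen with earlier results of these data known. The named genes were all PDGF genes, the 2 genes of each pathway role and of the kin with the highest mean percentile, and the 3 regions nearest each gene in percentiles. One gene that this rule names is not reported here. Python 3.11.15, pandas 2.3.3, numpy 2.4.6, scipy 1.17.1 and matplotlib 3.10.9 were used.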

Additional observations from a re-analysis of the deposited data

How the results depend on the processing

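Of 143 alternative values, 120 kept their direction and their side of the threshold or moved by less than the spread. The count of regions called in the rank test was 0 in every setting except without shMettl14 A, where 3 regions were called (leave-one-out range 0 to 3), in Gbp7, in D430036J16Rik and Htr1b, and outside annotated exons, and 0 of them belonged to a PDGF gene. The replicate letters gave no shared batch or day, and the deviations of same-letter lists correlated at 0.0795 over 4929 regions. With the letters as a replicate block, 0 regions were called, 292 had an unadjusted p under 0.05, the difference of Pdgfra stayed at -0.96 (limma adjusted p = 0.834), and no PDGF call changed. Pdgfra stayed below 0 in all 13 alternatives, with a lowest adjusted p of 0.834. Its unadjusted limma p was 0.067 in the main setting, and the lowest was 0.048, with log2 fold enrichment. In that setting 242 of 4929 regions had an unadjusted p under 0.05. The difference of Pdgfra in score ran from -1.21 to -0.33, that in log2 fold enrichment was -0.63 and the log2 ratio of summed pileups (Fisher's exact test) -0.26.

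The small differences of the other regions turned sign, and the cause was not tested. The first Pdgfrb region ranged from -0.22 to 0.20 when 1 list was left out (0.20 without shCTR B, 0.11 without shMettl14 A), and the other from -0.34 to 0.037 (0.037 without shCTR A). Pdgfa ranged from -0.12 to 0.44 (-0.12 without shCTR B, -0.01 without shMettl14 A), and was -0.044 by −log10 p, -0.10 by pileup and -0.11 as that log2 ratio. Pdgfb ranged from -0.32 to 0.51 (-0.32 without shCTR A, -0.12 without shMettl14 A), and was -0.036 by pileup and -0.072 as that ratio. Pdgfc ranged from -0.67 to 0.41 (0.41 without shMettl14 B), was -0.54 with summits chained within 100 bp, and was 0.070 as that ratio. The first Pdgfrb region gave no value where each list had to cover at least 50% of it. The percentile difference of Pdgfa was -14.9 over all its summits and 1.55 at the strongest summit.

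The group difference in PDGF summits stayed above 0, from 0.5 without shMettl14 A, or for distinct intervals, to 3.5 without shMettl14 B. With equal numbers of top summits taken from each list it was 1. Within 400 nt instead of 200 nt of the stop codon the share of PDGF summits was 57.1%. A DRACH was within 25 nt of 76.2% and within 100 nt of 97.6% of PDGF summits, and GGACT was within 100 nt of 40.5%, as wider windows hold more motifs. The GGACT share of PDGF summits lay above that of all placed summits at 100 nt (35.1%) and 25 nt (11.9% against 10.9%) and below it at 50 nt, so its direction turns with the window. Pileups of 5 to 95 fragments limit each summit.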

Other observations

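Pdgfa and Pdgfd also had summits outside their exons. All 4 lists had a summit in the first part of the Pdgfa gene, in an intron (chromosome 5, positions 138996452 to 138996485), with a fold enrichment of 8.72 and 8.94 in shCTR and 12.6 and 7.78 in shMettl14. All 4 also had a summit 389 to 427 nt upstream of the annotated Pdgfa start, with 17.9, 13.0, 16.1 and 9.92, and shMettl14 A had a further one 503 nt upstream. The groups overlapped at both places. All of these summits lie in exons of 6330403L08Rik, a gene that GENCODE annotates as antisense on the plus strand. The peak lists carry no strand, so the summits cannot be assigned to either gene from these files.

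Pdgfd, with a single exonic summit in all lists together, had intronic summits at 3 places, each in 3 of the 4 lists. They lay at 6200278 to 6200399 (shCTR A, shCTR B and shMettl14 A), at 6204511 to 6204515 and at 6259746 to 6259769 (shCTR A, shMettl14 A and shMettl14 B for both) of chromosome 9, with 5 to 10 fragments and fold enrichments of 4.58 to 7.14.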
